A study of Mus musculus with 2 samples.

Results

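Red cell barcodes with few detected genes made up 779 of the 5859 barcodes deposited from *Clec3b*-lineage cell sorting of mouse bone and muscle. They were chosen by 2 measured values: fewer than 500 genes detected, and at least 50% of their unique molecular identifiers (UMIs, 1 per counted molecule) from the 4 adult globin genes *Hba-a1*, *Hba-a2*, *Hbb-bs* and *Hbb-bt*. No limit was placed on mitochondrial transcripts. The rule was met by 529 of 1872 barcodes of the intact library (28.3%, 95% Clopper-Pearson interval 26.2 to 30.4%) and by 250 of 3987 barcodes of the callus library (6.27%, 5.54 to 7.07%). The sort and the digestion can set these shares, and their part was not tested. Globin levels and the small number of genes are therefore how these barcodes were selected, and the description concerns the RNA that remained beside globin. This and all later intervals cover counting error only.

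The study followed the descendants of *Clec3b*-expressing cells into the fracture callus. All animals carried *Clec3b.creERT2; Ai14.R26.tdTomato*, in which the *Clec3b* locus drives a Cre recombinase that tamoxifen activates, so that *Clec3b*-expressing cells and their progeny become red fluorescent. Tamoxifen was given about 2 weeks before femoral surgery, surgery was done at 6 weeks of age, and tissue was taken 3 weeks later. Intact diaphyses with their surrounding muscle (no treatment) or fracture calluses from 3 littermates were pooled, digested with collagenase, sorted for tdTomato and run as 1 Chromium 3′ v3 library per condition. Thus there was no biological replicate and no test between conditions could be made, and an effect of fracture cannot be told apart from a difference between pools, sorts or libraries. The animals are given as male in the study's methods. The libraries showed a female pattern instead: *Xist*, which is made from the silenced X of females, had a UMI in 77.6% of intact and 91.5% of callus barcodes marked by both B-cell receptor genes *Cd79a* and *Cd79b*, and 4 Y-linked genes held 1 UMI in the intact and 0 in the callus library over all barcodes.

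Red cells form in the marrow from nucleated precursors that fill with hemoglobin, expel the nucleus and leave as reticulocytes. Without a nucleus no new nuclear transcripts can be made, so reticulocytes carry a store of messages that is lost as they mature, while ribosomes and mitochondria are cleared. Hemoglobin is assembled from α- and β-chains with heme, which is built by enzymes divided between mitochondria and cytosol, starting with *Alas2* and ending with *Fech*.

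The 4 globin promoters are shown because these genes gave nearly all RNA of the selected barcodes. The 220 bases before each RefSeq start (GRCm38.p6) are printed 5′ to 3′ on the gene's strand. Capitals mark CACCC (the core bound by KLF1), GATAA (bound by GATA1), CCAAT (bound by NF-Y) and the TATA-box letters ATATAA, searched on both strands and chosen after the sequences had been seen.
Hba-a1: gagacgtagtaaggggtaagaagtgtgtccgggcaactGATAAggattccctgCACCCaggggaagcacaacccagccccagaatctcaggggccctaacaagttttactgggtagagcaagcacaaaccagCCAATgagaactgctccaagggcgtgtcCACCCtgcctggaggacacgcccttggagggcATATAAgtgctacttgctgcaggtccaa
Hba-a2: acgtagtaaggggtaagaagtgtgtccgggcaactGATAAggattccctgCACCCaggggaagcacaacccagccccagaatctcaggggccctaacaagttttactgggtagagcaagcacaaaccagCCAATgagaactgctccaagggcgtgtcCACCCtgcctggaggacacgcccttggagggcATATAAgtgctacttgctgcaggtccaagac
Hbb-bs: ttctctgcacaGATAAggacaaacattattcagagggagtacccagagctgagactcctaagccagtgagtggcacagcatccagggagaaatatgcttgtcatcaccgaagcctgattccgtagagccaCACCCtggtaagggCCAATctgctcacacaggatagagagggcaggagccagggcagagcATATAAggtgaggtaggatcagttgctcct
Hbb-bt: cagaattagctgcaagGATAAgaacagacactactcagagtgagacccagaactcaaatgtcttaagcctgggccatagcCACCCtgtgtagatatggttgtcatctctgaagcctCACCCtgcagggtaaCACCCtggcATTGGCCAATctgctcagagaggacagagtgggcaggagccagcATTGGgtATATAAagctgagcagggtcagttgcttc
The windows lie at chr11:32283452-32283671 (+) for *Hba-a1*, chr11:32296272-32296491 (+) for *Hba-a2*, chr7:103827929-103828148 (-) for *Hbb-bs* and chr7:103813924-103814143 (-) for *Hbb-bt*. All 4 motifs were found in all 4 windows. In *Hbb-bs* they began 209 (GATAA), 90 (CACCC), 76 (CCAAT) and 30 bases (ATATAA) before the start. *Hbb-bt* held CACCC at 140, 104 and 89 bases before the start and CCAAT at 75, with reversed CCAAT copies at 80, directly before the forward one, and at 36. Of 32851 mouse promoter windows of 300 bases, 48.5% held CACCC, 19.97% GATAA, 31.1% CCAAT and 7.98% ATATAA. A match is a description of letters and not evidence of binding. The α promoters were 97.3% identical to each other over these 220 bases and the β promoters 71.9%.

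The selected barcodes were deeply counted but simple. Total UMIs per barcode ran from 1023 to 17188 with a median of 8837 in the intact library, and from 745 to 13229 with a median of 7883 in callus. The number of genes detected ranged from 27 to 492 (median 115) and from 27 to 468 (median 160). Per barcode, 59.5 to 99.2% of UMIs were globin in the intact library (median 96.7%) and 55.8 to 98.7% in callus (median 94.9%). Together they held 4483721 UMIs, or 37.0%, of the 12112002 UMIs of the intact library and 1889118, or 5.15%, of the 36714322 UMIs of the callus library. What they kept beside globin was 173691 UMIs in the intact and 107199 in the callus library, a median of 289 and 415 per barcode.

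**Figure D1:**
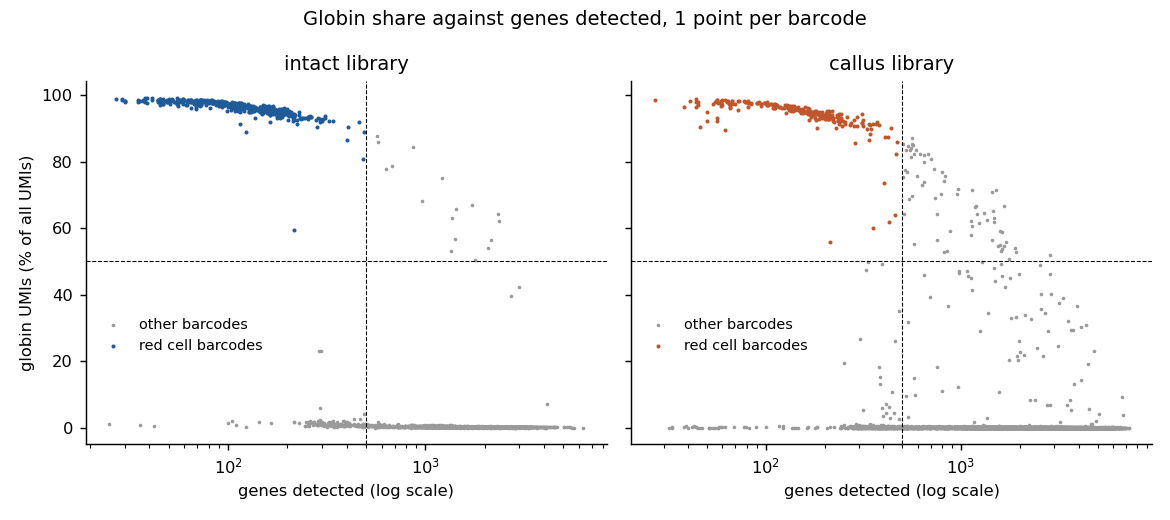
Globin share (% of all UMIs) against genes detected (log scale), 1 point per barcode and 1 panel per library, with dashed lines at the limits of 500 genes and 50%. Intact red cell barcodes (blue) stand apart, while callus red cell barcodes (orange) run on into globin-rich barcodes with more genes.

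The limit on globin share fell in a gap in the intact library, whereas callus barcodes lay on both sides of it. Among barcodes under 500 genes, the highest globin share outside the selection was 23.2% in the intact and 49.7% in the callus library, and 1 and 2 selected barcodes lay below 60%. At the gene limit, 5 intact and 8 callus members had at least 400 genes. Just beyond it, 2 intact and 19 callus globin-rich barcodes had 500 to under 600 genes. In all, 17 intact and 68 callus barcodes were globin-rich but had too many genes. No member had more than 10% mitochondrial UMIs, and the median was 0.0568% and 0.103%. The libraries shared 1 barcode sequence, which was not a member. No doublet caller was run on these barcodes.

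The label was checked with a gene the rule did not use. *Alas2*, the red-cell form of the enzyme that starts heme synthesis, had a UMI in 98.3% of intact and 96.4% of callus red cell barcodes. Among B-marked barcodes (at least 500 genes, under 50% globin and at least 2 UMIs each of *Cd79a* and *Cd79b*), which should lack it, the share was 1.14% and 1.04% at median depths of 2920 and 3462 UMIs. The *Clec3b* message was nearly absent from the red cell barcodes, with 5 and 2 UMIs over all of them. The tdTomato transcript was not analysed here, so membership in the traced lineage was not tested.

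Among the globins, *Hbb-bs*, a β-chain gene, led in both libraries. It gave 58.8% of globin UMIs in intact and 56.5% in callus barcodes, with a median of 5035 and 4240.5 UMIs per barcode. *Hba-a1*, an α-chain gene, gave 15.6% and 16.6%, its near copy *Hba-a2* 11.7% and 12.8%, and the second β-chain gene *Hbb-bt* 13.8% and 14.1%. The α-chain genes together took 27.35% of globin UMIs in the intact library (27.3 to 27.4%) and 29.4% in callus (29.3 to 29.5%). Single barcodes spread widely around these means, from 16.5 to 40.1% with an SD of 3.47 percentage points in the intact and from 19.7 to 49.0% with an SD of 3.50 in the callus library, so the libraries overlapped. Embryonic genes were close to absent, with 4 and 1 UMIs of *Hbb-bh1* and 2 and 0 of *Hba-x*. The θ-globin genes were better represented. *Hbq1a* reached 449 and 466 and *Hbq1b* 432 and 644 CPM, the unit used from here on, which is the gene's UMIs per 1000000 non-globin UMIs of the same barcodes. This 3′ assay counts 1 end per molecule, so CPM was compared between genes without dividing by length. The last 300 transcript bases of *Hba-a1* and *Hba-a2* were 89.6% identical and those of *Hbb-bs* and *Hbb-bt* 86.2%, so the division of reads within each pair is uncertain. Over the last 100 bases the identity was lower, at 72.4% (0 mismatches and 32 gaps) and 67.3% (26 mismatches and 8 gaps).

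Beside globin, genes listed as erythroid took a large minority of the RNA. The 6 erythroid gene lists (heme and iron, membrane and skeleton, ubiquitin and clearance, antioxidant, energy metabolism with carbonic anhydrases, and transcription factors) took 36.8% of non-globin UMIs in intact and 37.4% in callus barcodes. The same lists took 9.20% and 7.47% in nucleated erythroid precursors, and 1.31% and 1.36% in B-marked barcodes. Precursors here are the 12 intact and 122 callus barcodes with at least 500 genes and a UMI of at least 4 of 8 erythroid genes, which include *Klf1*, *Gata1*, *Rhag*, *Ermap*, *Car1*, *Epor* and *Trim10*, and 9 and 53 of them were at least 50% globin. The levels of these 8 genes in precursors are set by that choice, and the limit of 500 genes in itself keeps members poor in rarer messages. Precursors were also uneven. Shares and ratios use UMIs summed over them, and the 3 intact and 69 callus precursors under 50% globin held 66.1% and 83.4% of their non-globin UMIs. For the single precursor the erythroid share had a median of 14.2% and 12.8% (36.8% and 37.9% in red cell barcodes). Gene by gene, 27 of 79 erythroid genes in the intact library were at least 2-fold above precursors and 37 at least 2-fold below (median log2 ratio -0.65), and 31 and 55 of 109 in callus (-1.03), so the larger share came from a minority of the genes. Over all genes with at least 20 UMIs in both groups together, 18.5% of 1143 genes were at least 2-fold above precursors in the intact library and 60.2% at least 2-fold below, and in callus 5.05% of 5490 were above and 53.8% below. Against the 9 and 53 globin-rich precursors alone, 22 and 29 of 67 and 24 and 43 of 86 erythroid genes were above and below. Over all 735 intact genes tested against these, 23.8% were above and 43.4% below. In callus 10.9% of 1463 were above and 61.9% below.

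**Figure D2:**
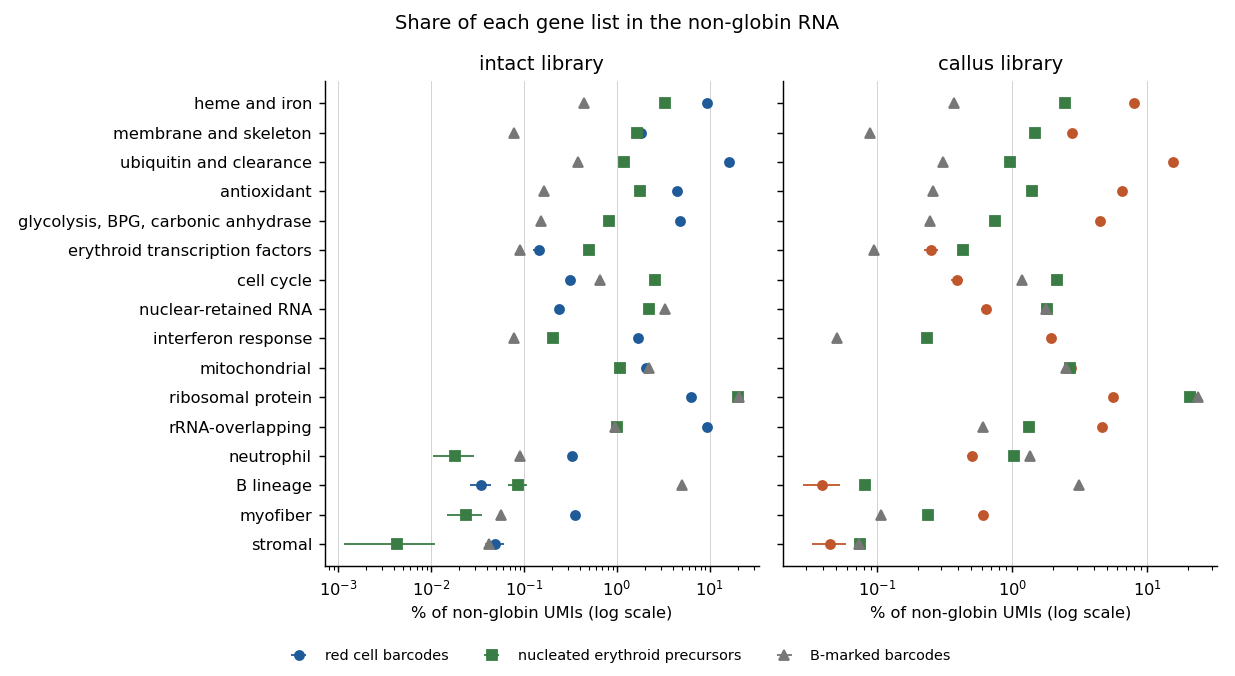
Share of each gene list in non-globin UMIs (%, log scale), with 95% Poisson bars. Red cell barcodes are circles (blue for intact, orange for callus), nucleated erythroid precursors green squares and B-marked barcodes gray triangles. Heme, ubiquitin, antioxidant and energy lists lie furthest right in red cell barcodes, and cell cycle, nuclear and ribosomal protein lists lie left of the precursors, whose squares are summed UMIs and follow the precursors with most RNA.

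Heme synthesis was represented mainly by the enzymes of its first and last steps. *Alas2* was at 35598 CPM in intact and 24916 CPM in callus barcodes, 22.2 and 22.8 times its level in precursors, or 9.23 and 6.27 times that in globin-rich precursors. *Fech*, which inserts the iron into the ring, was at 5429 and 5196 CPM, 6.76 and 6.48 times the precursor level (3.37 and 2.23 times in globin-rich precursors). The enzymes between them were scarce. *Alad* had 1 and 5 UMIs in all barcodes, *Uros* 2 and 2, *Cpox* 4 and 17, and *Ppox* 7 and 7, each at most 0.226 times its precursor level. *Urod* (68 and 96 UMIs) was intermediate, at 0.494 and 1.71 times the precursor level, and at 0.295 and 0.694 times that of globin-rich precursors. Of the heme and iron list, 5 of 17 and 6 of 21 genes were at least 2-fold above precursors and 10 and 12 at least 2-fold below. Over all genes tested, 18.5% and 5.05% were above and 60.2% and 53.8% below, so the part below was near that of all genes. *Tmem14c*, which carries the porphyrin intermediate into mitochondria, had only 2 UMIs in each library and lay at 0.00591 and 0.0137 times its precursor level. The iron importer *Slc25a37* of mitochondria kept 5717 and 5215 CPM and *Glrx5*, needed for iron-sulfur clusters, 5746 and 5392 CPM. The transferrin receptor gene *Tfrc* had 20 and 41 UMIs. The ferritin light chain *Ftl1* exceeded the heavy chain *Fth1* (24089 against 11739 CPM intact, 19123 against 11744 CPM callus), whereas precursors had more *Fth1* than *Ftl1* (9181 against 3096 CPM and 6660 against 2268 CPM).

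Genes of ubiquitination and organelle clearance formed the largest erythroid list, at 16.1% and 15.4% of non-globin UMIs against 1.18% and 0.966% in precursors. *Ubb*, a polyubiquitin gene, stood at 42777 and 33554 CPM. It also had a UMI in 98.5% and 97.1% of B-marked barcodes, so it was not particular to red cell barcodes. *Mkrn1*, a ubiquitin ligase, stood at 32869 and 30765 CPM, 29.2 and 34.0 times its precursor level (10.9 and 8.54 times in globin-rich precursors). *Bnip3l*, required for removal of mitochondria from reticulocytes, was at 14186 and 12836 CPM, 27.0 and 26.2 times the precursor level (15.5 and 7.14 times in globin-rich precursors). *Gabarapl2*, an autophagosome protein, was at 12632 and 9972 CPM. *Ube2o*, an enzyme that strips ribosomes from reticulocytes, was at 2602 and 4310 CPM. Of the list, 15 of 19 genes in the intact and 16 of 23 in the callus library were at least 2-fold above precursors, and 13 of 18 and 13 of 22 above the globin-rich ones. Over all genes tested, 18.5% and 5.05% were above summed and 23.8% and 10.9% above globin-rich precursors. *Tent5c*, a poly(A) polymerase, also belonged to the abundant genes, with 9793 and 13200 CPM.

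Among enzymes of red cell metabolism, *Bpgm* was prominent. It makes 2,3-bisphosphoglycerate, which lowers the oxygen affinity of hemoglobin, and it lay at 41712 and 32248 CPM, 67.1 and 84.7 times its precursor level and 23.1 and 16.3 times that of globin-rich precursors. The gene lies at chr6:34476207-34505613 on the plus strand (mm10, GENCODE vM21). *Bpgm* had a UMI in 90.7% and 90.4% of red cell barcodes and in 8.37% and 9.67% of B-marked barcodes. Glycolytic enzymes themselves were scarce, with 28 UMIs of *Gapdh* in each library, 65 and 51 of *Aldoa*, 3 and 2 of *Hk1* and none of *Pklr*, where a count of 0 allows up to 17.3 and 28.0 CPM. Carbonic anhydrases parted, since *Car2* was at 5942 and 11493 CPM while *Car1* had 0 and 2 UMIs. The antioxidant list took 4.46% and 6.48%, led by *Gpx1* (glutathione peroxidase) at 30295 and 47743 CPM and *Prdx2* (a peroxiredoxin) at 10162 and 11381 CPM. *Sod1* had 2 and 5 UMIs. Summed precursors had 1.78% and 1.41% of the antioxidant list, but the median precursor 2.99% and 2.21%, beside 2.76% and 5.38% in the median red cell barcode. Of this list 3 of 8 and 4 of 11 genes were at least 2-fold above precursors and 4 and 6 below, and of the energy list 2 of 6 and 2 of 14 above and 3 and 10 below. Over all genes tested, 18.5% and 5.05% were above and 60.2% and 53.8% below.

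Of the membrane and skeleton list, *Epb41* (protein 4.1) was the most abundant at 7709 and 10644 CPM, 14.1 and 16.5 times the precursor level (5.30 and 4.20 times in globin-rich precursors). *Slc4a1*, the anion exchanger band 3, was at 1462 and 3610 CPM, 0.638 and 1.63 times summed and 0.258 and 0.585 times globin-rich precursors, and the palmitoylated protein gene *Mpp1* at 2090 and 2220 CPM. The spectrin gene *Sptb* (29 and 45 UMIs) and the ankyrin gene *Ank1* (19 and 19 UMIs) were low. *Slc2a1* and *Xk* were at 0 in both libraries. As a whole the list took 1.81% and 2.76% of non-globin UMIs, beside 1.63% and 1.47% in summed precursors. The median precursor had more of it, 3.26% and 3.09%, than the median red cell barcode at 1.28% and 2.23%. Gene by gene, 13 of 21 in the intact and 13 of 24 in the callus library were at least 2-fold below precursors and 2 and 3 at least 2-fold above, with median log2 ratios of -1.34 and -1.15 against -1.75 and -1.15 over all genes tested.

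Messages of nuclear programs were few. The erythroid transcription factors *Gata1* (1 and 1 UMIs) and *Klf1* (0 and 4 UMIs) and the erythropoietin receptor *Epor* (0 and 1 UMIs) were almost absent. *Lmo2* (115 and 113 UMIs) was at 0.835 and 1.95 times and *E2f2* (74 and 78 UMIs) at 1.42 and 1.82 times the level of summed precursors, and at 0.523 and 1.02 and at 0.842 and 0.691 times that of globin-rich ones. No gene of the transcription factor list was 2-fold above precursors in either library, and 5 of 8 and 12 of 16 were at least 2-fold below. Over all genes tested, 18.5% and 5.05% were above and 60.2% and 53.8% below. The intact part below and the callus part above were thus near those of all genes. *Gata1*, *Klf1* and *Epor* of this list were also used to choose the precursors. Of the cell cycle list, 16 of 17 and 17 of 18 genes were at least 2-fold below precursors, beside 60.2% and 53.8% of all genes tested. The exception was *Ube2c*, a ubiquitin-conjugating enzyme of mitosis, with 498 and 318 UMIs, 1.12 and 1.94 times its precursor level (0.480 and 0.718 times in globin-rich precursors). The histone gene *Hist1h2ap* had 15 and 3 UMIs. *Malat1*, a nuclear RNA, was at 2257 and 6259 CPM, or 0.108 and 0.391 times the precursor level, and was held by few barcodes. A single barcode carried 101 of the 392 UMIs in the intact and 241 of the 671 in the callus library, and the top 5 carried 79.8% and 84.8%. Those 5 had 216 to 492 and 356 to 468 genes. Without them, *Malat1* was at 468 and 1002 CPM.

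Ribosomal protein messages differed from those of some precursors and not of others. These genes took 6.21% and 5.54% in red cell barcodes and 20.2% and 20.6% in summed precursors, where 71 of 80 and 74 of 81 were at least 2-fold below, again beside 60.2% and 53.8% of all genes tested. That share was carried by few precursors, since 5 of the 12 intact ones held 96.0% of the ribosomal protein UMIs and the 5 richest of 122 in callus 33.3%. The median was 6.01% and 5.83% per red cell barcode and 5.15% and 5.91% per precursor. Against globin-rich precursors (5.70% and 4.19%), 23 of 70 genes were at least 2-fold below and 9 above in the intact library, and 5 and 11 of 78 in callus. Over all genes tested against these precursors, 43.4% and 61.9% were below and 23.8% and 10.9% above. *Rpl41* led them at 11198 and 6063 CPM. *Pabpc1*, the poly(A)-binding protein, was retained at 13443 and 13787 CPM, and *Sec61g*, a subunit of the translocon, at 28130 and 18760 CPM. The 13 mitochondrially encoded messages took 2.07% and 2.73%, with *mt-Co1* (7859 and 9133 CPM) first, 2.83 and 1.56 times its precursor level. Of these messages 3 of 12 tested in the intact and 0 of 13 in the callus library were at least 2-fold above precursors, beside 18.5% and 5.05% of all genes tested, and none was as far below. Against globin-rich precursors 8 of 11 and 12 of 12 were above, beside 23.8% and 10.9% of all genes tested against these. Noncoding *Gm42418*, which overlaps ribosomal RNA sequence, was the most abundant non-globin feature in the intact library at 73464 CPM, and reached 43900 CPM in callus.

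Single barcodes carried these messages in small numbers and with a wide spread. *Alas2* had a median of 11 UMIs per barcode in both libraries, from 0 to 34 in the intact and 0 to 30 in the callus library. *Bpgm* had a median of 13 in both, with a highest value of 48 in both. *Gpx1* was the most uneven between libraries, with medians of 6 and 17 and highest values of 60 and 81, and it was at 0 in more barcodes than *Alas2* or *Bpgm*. *Ubb* had medians of 8 and 11 and reached 88 and 51. For each of these 4 genes the 5 richest barcodes held between 2.49 and 7.42% of its UMIs, so none rested on a few barcodes as *Malat1* did. *Gm42418* had medians of 21 and 18, with 739 UMIs in 1 intact barcode.

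Genes were ranked by the lower of their 2 library ratios, with the 4 adult globins set aside. The genes furthest above precursors were then *Bpgm*, *Fam220a* (54.5 and 73.7 times), *Hbq1a* (41.9 and 109 times, with intervals of 7.31 to 1677 and 40.1 to 417 from 1 and 4 precursor UMIs), *Ccndbp1* (38.0 and 31.8 times), *Tent5c* (29.5 and 32.4 times), *Mkrn1*, *Bnip3l* and the mitochondrial carrier *Slc25a39* (25.5 and 22.3 times), which imports glutathione. Single libraries gave other orders. In the intact library *Acta1* (71.5 times) and *Ube2o* (60.7 times) were also high, from 1 and 4 precursor UMIs. In callus they were at 2.67 and 17.8 times. *Acta1* codes for skeletal actin, a myofiber gene. Intact precursors held 6 UMIs of *Fam220a* and 9 of *Ccndbp1*. Against globin-rich precursors *Fam220a* was at 18.5 and 13.2, *Hbq1a* at 14.2 and 24.2 and *Ccndbp1* at 16.5 and 7.68 times. *Tent5c* was at 11.1 and 6.90 and *Slc25a39* at 10.7 and 6.15 times. *Ccndbp1*, a helix-loop-helix protein that binds cyclin D1, lies at chr2:121008403-121016904 (+) and *Slc25a39* at chr11:102402985-102407946 (-), both in mm10. These are ratios of shares of non-globin RNA, not of molecules per cell.

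Interferon-response genes took 1.70% and 1.95%, against 0.208% and 0.236% in precursors (0.436% and 0.770% in globin-rich ones) and 0.0780% and 0.0502% in B-marked barcodes. *Isg20*, an exonuclease, had a UMI in 79.2% and 83.2% of red cell barcodes and *Rsad2*, the antiviral protein viperin, in 51.8% and 67.6%. *Isg15*, a ubiquitin-like protein, was found in 15.5% and 30.4%, with 59 UMIs in its highest barcode of each library. *Ifit1* had 13 and 8 UMIs and *Ifit3* 0, so the abundant members of this list were few.

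Between the libraries, the order of the abundant genes was similar and the levels moved by less than 2-fold for nearly all of them. Of 749 genes with at least 20 UMIs, 145 were at least 2-fold higher in callus (19.4%) and 37 at least 2-fold lower (4.94%). The counts are mostly of sparse genes, with a median of 36 and 35 UMIs, and the 95% interval of the ratio excluded 1 for 128 and 30 of them. The median gene was itself 0.32 higher in callus on the log2 scale, and centered on it 76 genes were higher and 54 lower. Scaled to all UMIs, globin included, 318 were higher and 19 lower. Among the 301 intact and 133 callus barcodes with 200 to 600 non-globin UMIs, 59 of 472 genes were higher and 22 lower.

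**Figure D3:**
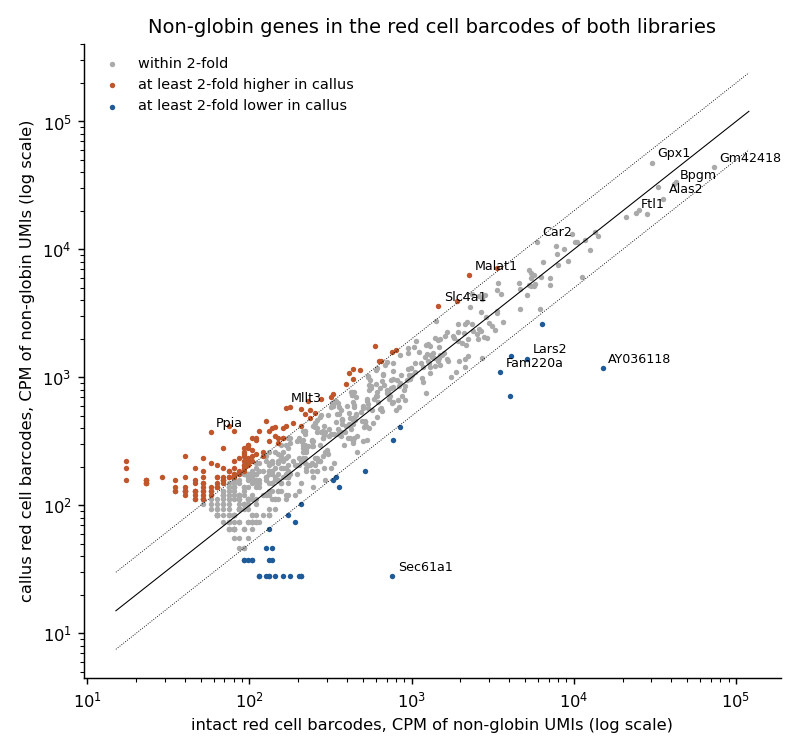
CPM (per 1000000 non-globin UMIs) of 749 genes in intact (x axis) and callus (y axis) red cell barcodes, both on log scales, with lines of equality and of 2-fold difference. Genes with under 3 UMIs in a library are drawn at the limit of 3 UMIs. Orange points (145) lie above the 2-fold band mostly at low levels, and *AY036118* and *Sec61a1* lie far below it.

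Of the membrane list, 8 of 18 genes were at least 2-fold higher in callus and none at least 2-fold lower, beside 19.4% and 4.94% of all genes, with a median log2 ratio of 0.91 against 0.32 for all genes. *Slc4a1* was 2.47-fold higher (2.10 to 2.90), *Sptb* 2.51-fold and *Epb42* 2.37-fold higher, all components of the membrane or its skeleton. *Epb41* was 1.38-fold higher. Among barcodes with 200 to 600 non-globin UMIs the list took 1.72% in intact and 2.43% in callus. Heme genes were divided. *Alas2* was lower in callus (0.700-fold, 0.669 to 0.733), *Urod* 2.29-fold and *Tfrc* 3.32-fold higher, and the interval of *Fech* included 1 (0.957-fold, 0.860 to 1.06). *Gpx1* was 1.58-fold higher (1.52 to 1.64). It had a UMI in 72.6% and 78.0% of barcodes, or 54.8% and 70.2% once each was thinned to 50 non-globin UMIs, which left out 7 and 5 barcodes. *Car2* was 1.93-fold higher, whereas *Bpgm* (0.773-fold), *Ubb* (0.784-fold) and *Ftl1* (0.794-fold) were lower. B-marked barcodes differed in the same direction for *Gpx1* (1.62-fold, 1.43 to 1.84), *Car2* (2.78-fold, 2.07 to 3.82), *Ubb* (0.733-fold, 0.698 to 0.770) and *Ftl1* (0.832-fold, 0.780 to 0.888). The *Bpgm* ratio of B-marked barcodes was 1.23 (0.783 to 2.02). Callus B-marked barcodes held a mean of 61.1 globin UMIs but a median of 1, with up to 8181. The part of red cell RNA in these B-marked ratios was not tested. Of the ubiquitin list *Xpo7* was the only gene of 19 past 2-fold (2.38-fold higher), and of the antioxidant list no gene of 6 was.

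The genes furthest apart between the libraries included several that also differed in other cells. With at least 50 UMIs, the lowest in callus included *Sec61a1* (132 intact and 2 callus UMIs, a ratio of 0.0245 with an interval of 0.00294 to 0.0905), *AY036118* (2620 and 127), *Lars2* (896 and 150) and *Fam220a* (609 and 118). In B-marked barcodes the callus over intact ratio was 0.43 for *Sec61a1*, 0.09 for *AY036118* and 0.34 for *Lars2*. For *Fam220a* it was 1.00, with only 2 and 8 UMIs behind it. *AY036118* lies within *Gm42418* on the opposite strand of chromosome 17, and reads of the pair may not be separable. The highest in callus were *Ppia* (10 and 40 UMIs, 6.48-fold), the kinase gene *Wnk1* (13 and 45, 5.61-fold), the heme-regulated kinase gene *Eif2ak1* (14 and 41, 4.75-fold), the autophagy protease gene *Atg4a* (22 and 49, 3.61-fold) and *Mllt3* (29 and 62, 3.46-fold). B-marked ratios for these 5 were 1.31, 1.53, 0.79, 1.67 and 1.41. The part of such differences between whole libraries in the red cell values was not tested.

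The remaining RNA changed in composition with its amount. Barcodes of each library were ordered by non-globin UMIs and cut into 3 pieces of 177, 176 and 176 in the intact library and 84, 83 and 83 in callus, with medians of 113, 289.5 and 512.5 and of 129.5, 417 and 677 non-globin UMIs. Since each gene's own UMIs enter the order, these values are a description. From the fewest to the most, *Gpx1* went from 5084 through 25322 to 37926 CPM in the intact and from 14344 through 47002 to 54795 CPM in the callus library. *Car2* went from 194 through 2493 to 8850 CPM and from 891 through 7070 to 15961 CPM. *Slc4a1* and *Prdx2* followed the same order in both libraries. *Alas2* ran the other way, from 58294 through 44139 to 26677 CPM and from 43922 through 28068 to 19450 CPM, and *Ftl1*, *Rpl41* and *Gm42418* did too. *Bpgm* and *Mkrn1* were highest in the middle piece of both libraries. As shares of lists, antioxidant genes went from 0.746% through 3.42% to 5.74% in the intact library and heme genes from 12.4% through 10.7% to 8.22%.

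**Figure D4:**
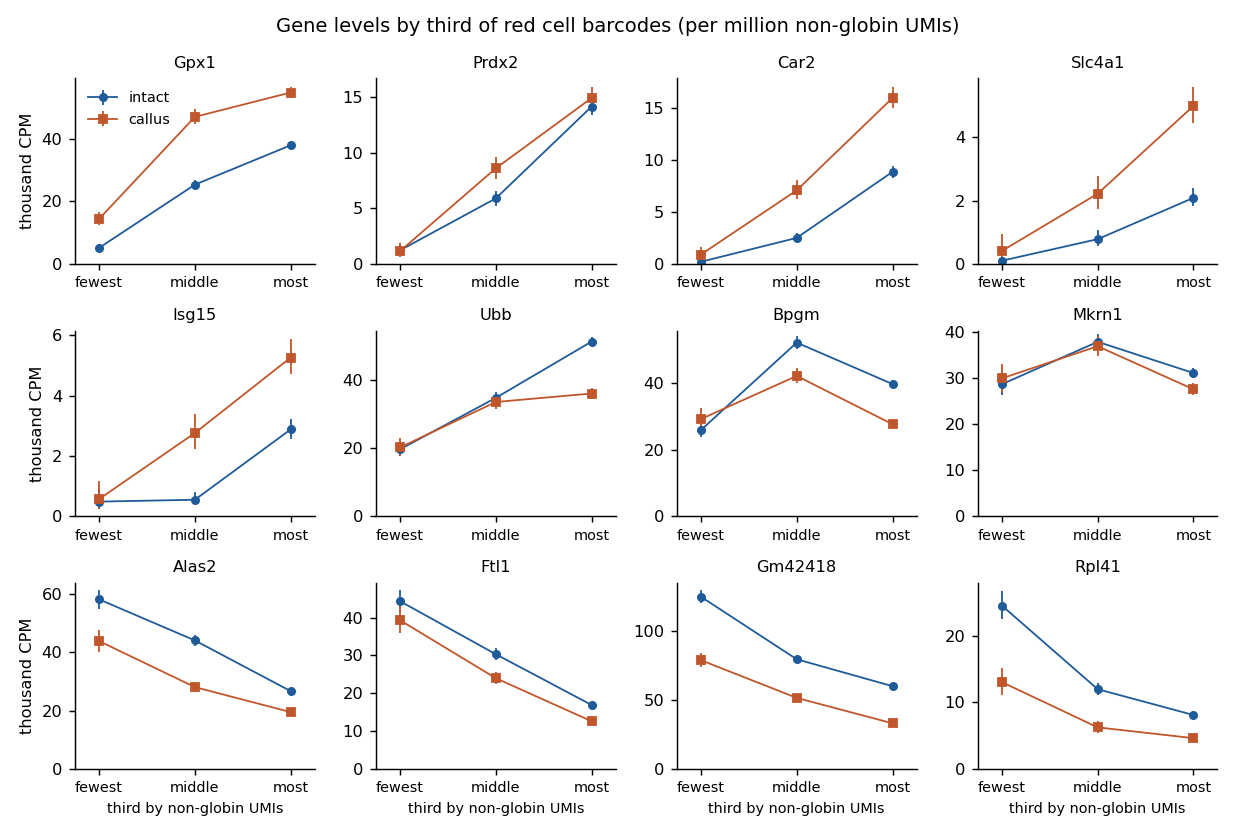
Levels of 12 genes (CPM of non-globin UMIs divided by 1000, y axes from 0) in the red cell barcodes with the fewest, middle and most non-globin UMIs, intact in blue and callus in orange, with 95% Poisson bars. *Gpx1*, *Prdx2*, *Car2*, *Slc4a1* and *Isg15* are highest in barcodes with the most RNA, and *Alas2*, *Ftl1*, *Gm42418* and *Rpl41* in those with the fewest.

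The β-globin pair was also uneven at the RNA-poor end. *Hbb-bt* gave 13.1, 19.95 and 21.8% of β-globin UMIs in the intact pieces and 14.7, 20.6 and 22.7% in the callus pieces, whereas *Hba-a1* held 57.7, 57.0 and 56.8% and 57.4, 56.2 and 56.2% of α-globin UMIs. Barcodes with *Hbb-bt* under 10% of β, a limit chosen after the values were seen, numbered 70 in the intact (13.2%) and 32 in the callus library (12.8%), and 69 and 32 of them were in the piece with the fewest non-globin UMIs. The limit falls in a continuous range, since 33 and 16 barcodes lay between 8 and 12%. *Hbb-bt* was under 10% in 0 of 11 intact and 0 of 106 callus precursors with at least 300 globin UMIs, which allows up to 27.3% and 2.83%, and in 0 of 17 and 0 of 68 globin-rich barcodes with at least 500 genes. The barcodes low in *Hbb-bt* had fewer UMIs, a median of 4972 in all and 80 beside globin in the intact library, against 9157 and 325 in the others. In callus these medians were 2880 and 77 against 8150.5 and 442.

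Barcodes low in *Hbb-bt* were also poor in *Gpx1*. They held 1 UMI of it in the intact library (70 barcodes) and 1 in callus (32 barcodes), against 5261 UMIs in 383 of 459 and 5117 UMIs in 194 of 218 of the others. Depth differed too, as given above. Within 60 to 120 non-globin UMIs, *Gpx1* was found in 0 of 47 intact barcodes low in *Hbb-bt*, which allows up to 6.38%, and in 6 of 29 others. In callus it was in 1 of 23 and 3 of 9. *Alas2* was found in 46 of 47 and 26 of 29 of the same intact barcodes and in 19 of 23 and 8 of 9 in callus. *Bpgm* was in 25 of 47 and 21 of 29 intact and in 12 of 23 and 4 of 9 callus barcodes. For *Ubb* these were 35 of 47, 20 of 29, 12 of 23 and 4 of 9, with 137 and 44 UMIs in the intact groups. The part of depth in the shares of *Hbb-bt* and *Gpx1* was not tested beyond this range.

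**Figure D5:**
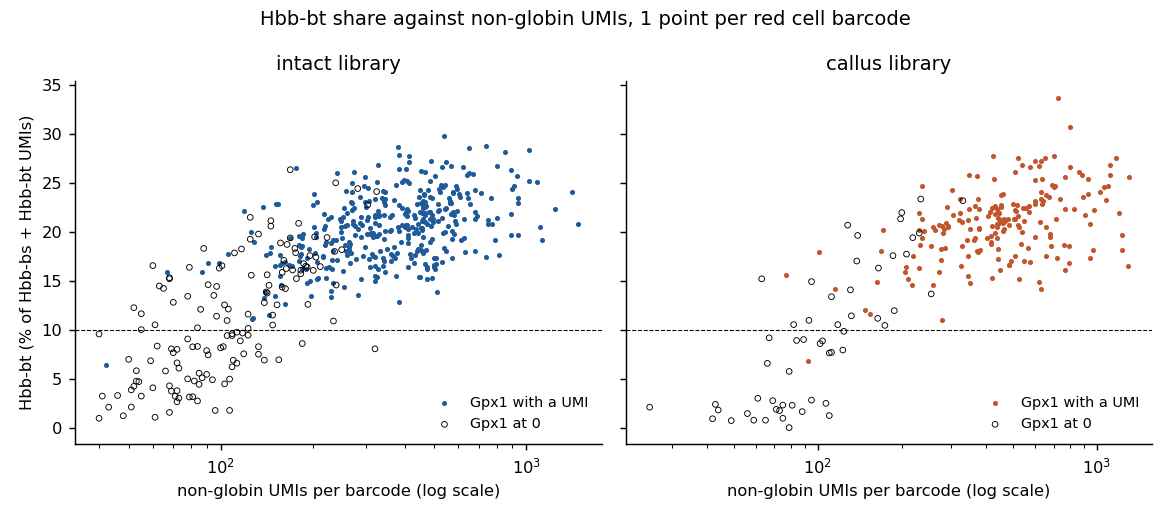
*Hbb-bt* share (% of *Hbb-bs* and *Hbb-bt* UMIs) against non-globin UMIs (log scale), 1 point per red cell barcode, filled where *Gpx1* had a UMI and open where it had none, with a dashed line at 10%. Points under the line are nearly all open and sit at the low end of the x axis in both libraries.

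Messages of other cells were present at low levels. The 9 lists of other cell types took 0.785% of non-globin UMIs in intact and 1.22% in callus red cell barcodes, or a mean of 2.23 to 2.89 UMIs per barcode over the intact pieces and 4.10 to 6.04 over the callus pieces. Myofiber genes (611 and 650 UMIs, led by *Acta1*, skeletal actin) and neutrophil genes (572 and 537 UMIs, led by *S100a9*) made up most. Red cell barcodes had a median of 1 and 2 UMIs of each of these lists, the same medians as B-marked barcodes. Means were 1.08 and 2.15 UMIs of neutrophil and 1.16 and 2.60 of myofiber genes, against 3.51 and 96.5 and against 2.21 and 7.67 in B-marked barcodes. B-lineage genes took 0.0345% and 0.0392%, stromal genes 0.0489% and 0.0448%. Monocyte genes had 21 and 21 UMIs, endothelial 4 and 3, megakaryocyte 4 and 2, T and NK 3 and 3, and mast cell, basophil and eosinophil genes 3 and 3. *Csf1r*, *Cd3e* and *Ppbp* were at 0. In the opposite direction, B-marked barcodes held a median of 7 globin UMIs in the intact library, where 100% had at least 1, and 1 in callus, where 73.7% did. The part of RNA from other cells in the non-globin values of the red cell barcodes was not tested.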

How the data were processed

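Barcodes of both libraries were analysed as deposited. Per the file headers and labels, the authors counted UMIs with Cell Ranger 6.0.0 on mm10. The deposited counts are raw UMIs for 32285 genes. Members, gene lists and comparisons were chosen with earlier results of these data known. Counts were summed over members and expressed per 1000000 non-globin UMIs (CPM). Shares have exact Clopper-Pearson and CPM exact Poisson intervals at 95%, ratios exact conditional intervals. A count of 0 allows 3 counts. Genes needed 20 UMIs in the groups compared, and a 2-fold ratio was counted without a test. Named genes were the globins, the 15 most abundant others, the 3 highest mitochondrial and ribosomal protein genes and the 4 leading genes of each list. Also named were the 5 furthest apart between libraries each way (50 UMIs) and the 8 furthest from precursors each way in both libraries. Some genes these rules name are not reported here. Others named from the lists were chosen after their values were seen. The interval calculations were tested on simulated data. Gene positions are from GENCODE vM21 (32158 identifiers, or 99.6%, matched) and all 4 globin promoters from RefSeq. Tools were python 3.11.15, numpy 2.4.6, scipy 1.17.1, pandas 2.3.3, biopython 1.88 and matplotlib 3.10.9.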

Additional observations from a re-analysis of the deposited data

Results flagged for a closer look

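Of 78 named genes compared between red cell barcodes and nucleated precursors, 6 lay on opposite sides of 1 in the libraries with intervals that exclude it. *mt-Atp6* was 1.31 times the precursor level in the intact library and 0.876 times in callus. *Slc4a1* was at 0.638 and 1.63 times. The neutrophil genes *S100a9* (17.2 and 0.559 times), *S100a8* (17.8 and 0.478 times), *Camp* (at least 7.88-fold higher, and 0.533 times) and *Ngp* (at least 8.06-fold higher, and 0.373 times) did the same. The difference was not tested, since each condition is 1 library, and the intact precursors are 12 barcodes against 122 in callus. The neutrophil list took 0.0182% of non-globin UMIs in intact and 1.03% in callus precursors, and 0.329% and 0.501% in red cell barcodes. Intact precursors held 7 UMIs of *S100a9*, 5 of *S100a8* and 0 of *Camp* and *Ngp*. The median intact precursor and the median intact red cell barcode each had 1 UMI of the list, with means of 1.42 and 1.08. Their median non-globin UMIs were 4228 and 289. With each precursor at equal weight the intact ratios of *S100a9* and *S100a8* were 7.27 and 7.99. In callus, 5 precursors held 94.9% of the neutrophil UMIs. The median precursor had 3 of them there, or 0.0700% of its non-globin UMIs, and the median red cell barcode 2, or 0.480%. With each precursor given equal weight the callus ratio was 1.20 for *S100a9*, 1.07 for *S100a8*, 1.26 for *Camp*, 0.873 for *Ngp*, 0.749 for *Slc4a1* and 1.03 for *mt-Atp6*.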

How the results depend on the processing

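No paired analysis was possible because each condition is 1 library and the results come from no test. Some gene ratios changed side of 1 with the choice of precursors, as given at the end of this paragraph. The number of red cell barcodes stayed within its interval under each alternative limit. The erythroid share (36.8% intact, 37.4% callus) was 37.1 and 38.2% with under 400 genes, 38.8 and 39.5% at 200 to 600 non-globin UMIs, 37.3 and 37.8% with *Hbb-bt* at 10% or more of β, and 34.7 and 35.1% as a mean over barcodes, and 37.1% in callus with globin at 40% or more. The mitochondrial share (2.07 and 2.73%) was 2.30 and 3.41% as a mean over barcodes and 2.88% in callus at 200 to 600 UMIs. The α share (27.35 and 29.4%) was 27.1 and 28.8% at 200 to 600 UMIs, 27.2 and 29.3% by *Hbb-bt*, 27.1 and 29.5% as a mean, and 29.3% in callus without the 5% of barcodes richest in other-cell genes. Genes higher and lower in callus (145 and 37) numbered 59 and 22 at 200 to 600 UMIs, 318 and 19 as CPM of all UMIs, 46 and 13 with at least 50 UMIs, 2627 and 157 with no minimum, and 76 higher when centered. The *Hbb-bt*, 200 to 600 UMI and precursor alternatives were chosen after seeing the data. The erythroid share of precursors (9.20 and 7.47%) was 8.71 and 7.59% with 3 of 8 genes, 11.1 and 6.93% with 5 of 8, 5.78 and 5.49% in those under and 15.9 and 17.4% in those at or over 50% globin, and 14.7 and 13.2% with each precursor at equal weight. Genes at least 2-fold below precursors (688 and 2954) numbered 319 and 905 against those with at least 50% globin, and genes above in callus (277) 159 against these and 474 at equal weight. Of the genes whose precursor ratio is given, *Ube2c* and *E2f2* in both libraries and *Urod* and *Slc4a1* in callus lay above 1 against summed and below 1 against globin-rich precursors, and *mt-Atp6*, *Camp* and *Ngp* in callus the other way (2.21, 6.26 and 5.19 times).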
